A study of Rattus norvegicus with 12 samples.

Results

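The ubiquitin-conjugating enzyme (E2) genes were followed in red blood cells (RBCs) that were purified from rat blood after refrigerated storage. They were taken as every row of the deposited gene table whose name, apart from a trailing number, begins with Ube2 and a letter. This gave 35 of 29539 rows, of which 30 had enough counts to be tested. Whole blood of wild type Wistar rats aged 11 weeks was mixed with CPDA, a citrate, phosphate, dextrose and adenine solution that prevents clotting, in all groups. RBCs were purified at once (Cont, 0 d) or once the blood had been kept for 10 d or 20 d in the cold (4 °C), with 4 libraries of total RNA per group. Purification removed the buffy coat, the layer of leukocytes and platelets, by centrifugation and washing, with no sorting of cells by a marker. The blood of each rat was divided among the storage conditions, but the rat behind a replicate number is not given, so libraries were compared as unpaired and p-values measure the spread between libraries. The stored blood was purified on a later day than Cont, and the effects of storage and of that day cannot be told apart.

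Ubiquitin is a small protein that marks other proteins for degradation, transport or signalling. An E1 enzyme activates it, an E2 enzyme carries it on a cysteine, and an E3 ligase chooses the protein that receives it. In reticulocytes, the youngest red cells of the blood, this pathway helps to clear ribosomes, organelles and unneeded proteins, and mature mammalian RBCs have no nucleus with which to make new mRNA. *Ube2o* encodes a large enzyme with E2 and E3 activity that reshapes the reticulocyte proteome in mice, *Ube2h* encodes the E2 partner of the CTLH ligase complex, and *Ube2l6* encodes the E2 for the ubiquitin-like protein ISG15.

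The libraries held 65735930 to 85996710 counts, of which the 4 most abundant genes took 83.7% to 88.0%. Levels are given relative to library totals scaled by the trimmed mean of M-values (TMM), called CPM below, and levels of different genes are compared only as TPM, which accounts for gene length. Of the 12 red cell markers, 11 were in the table. Their summed level ranged over 615364 to 804206 CPM among Cont libraries. It was 821240 to 959520 CPM among 10 d and 856097 to 955366 CPM among 20 d libraries. Most of it was hemoglobin: *Hba-a2* and *Hbb-b1* had 367085949 and 373141223 counts over all libraries, and *Slc4a1*, the next marker, 480005. TMM factors, which divide CPM, were at least 1.03 for every Cont library and at most 0.985 for every stored one. Without TMM, the median log2 fold change of these markers against Cont was 0.04 at 10 d and 0.02 at 20 d, beside −0.35 and −0.39 for all genes. That median gives each marker the same weight, unlike the sum. The levels of the markers thus depend on the scaling, and whether stored blood held more red cell RNA was not tested. The 10 neutrophil markers summed to 43.9 to 71.6 CPM across Cont libraries, 10.2 to 34.8 CPM across 10 d and 2.83 to 7.32 CPM across 20 d libraries. The 8 monocyte markers likewise summed to 39.1 to 70.2 CPM across Cont libraries, 3.85 to 17.9 CPM across 10 d and 1.41 to 2.88 CPM across 20 d libraries. Markers of neutrophils and monocytes were thus detected at low levels, which were lower in stored blood. In bulk RNA, fewer cells of a type and less RNA per cell cannot be told apart.

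Transcripts of 10 E2 genes had a mean of at least 10 TPM over the 12 libraries, 12 lay between 1 and 10 TPM, 8 tested genes lay under 1 TPM and 5 were not tested. *Ube2o* was the most abundant with a mean of 126 TPM (75.6 to 187 TPM over the libraries). *Ube2s*, which encodes an E2 that lengthens chains on targets of the anaphase promoting complex, followed with 81.7 TPM (70.8 to 97.8). *Ube2v1*, which encodes a catalytically inactive E2 variant that acts beside Ube2n, had 72.5 TPM (63.6 to 82.1). The ranges of neighbours in this order overlapped, although *Ube2o* exceeded *Ube2s* in 11 of 12 libraries and *Ube2s* exceeded *Ube2v1* in 9 of 12. *Ube2r2*, whose product works with cullin ligases, had 66.5 TPM and *Ube2h* had 48.8 TPM. *Ube2c*, *Ube2k*, *Ube2d3*, *Ube2m* and *Ube2l6* completed the 10 highest, in this order, with means between 25.4 TPM for *Ube2c* and 12.1 TPM for *Ube2l6*. *Ube2n*, whose product forms chains only together with Ube2v1 or Ube2v2, had a mean of 1.31 TPM, so that the TPM of *Ube2v1* was 44.2 to 72.5 times that of *Ube2n* in each library. RefSeq lists 19 pseudogene entries named for *Ube2v1*, 9 for *Ube2n*, and 4 each for *Ube2s* and *Ube2c*, so the levels of these genes are uncertain where counting split reads among near-identical copies.

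**Figure D1:**
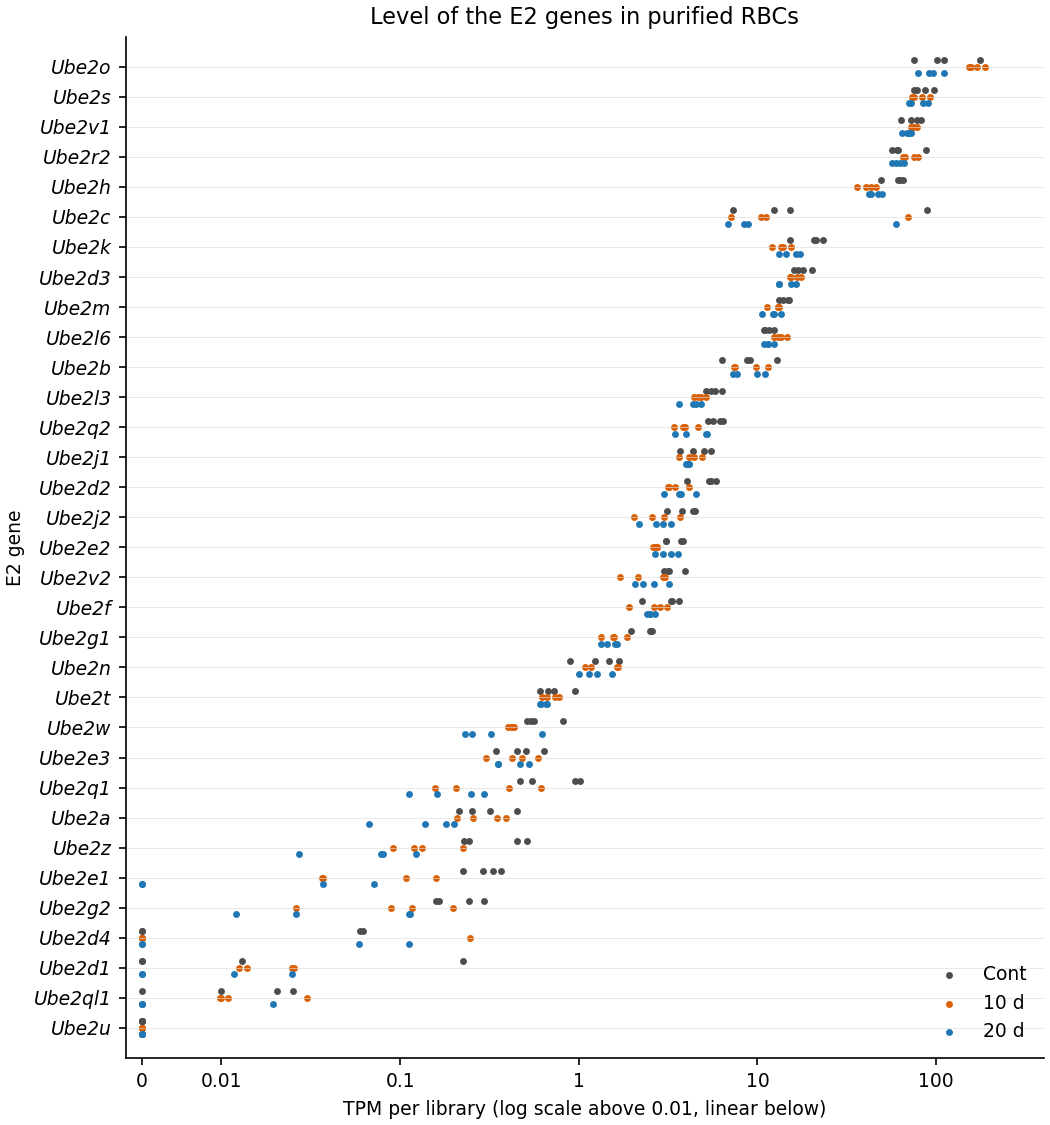
TPM of 33 of the 35 E2 rows in each of the 12 libraries, on a log scale above 0.01 TPM and a linear one below; each point is a library, coloured by storage, and genes run from the highest mean at the top to the lowest. *Ube2o* lies at the top with 75.6 to 187 TPM, and *Ube2c* splits into 3 libraries near the top genes and 9 lower ones.

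The 5 rows that were not tested had few or no counts. *Ube2u* had 0 counts in all 12 libraries, and a count of 0 allows up to 3 counts, or 0.0349 to 0.0456 CPM depending on the library. *Ube2ql1* had 13 counts in all, *Ube2d4* had 9, and *Ube2d1*, which encodes an E2 used by many ligases, had 28, mostly in Cont replicate 2. The row *Ube2d4* (*Ube2d2b* in RefSeq) lies inside *Evi5*, on the opposite strand. *Ube2d3* shares 217 bases with an unnamed gene of 647 counts and *Ube2a* shares 285 bases with *Steep1*, which had 148 counts, again on opposite strands. Counting is not stated to use strand, so reads of such pairs cannot be told apart. Limits set by a count of 0 cover counting error only.

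At 10 d against Cont, 7 of the 30 tested E2 genes were called higher and none was called lower by edgeR's quasi-likelihood test (Benjamini-Hochberg adjusted p under 0.05 over 8382 genes). The 7 genes were *Ube2o*, *Ube2l6*, *Ube2r2*, *Ube2v1*, *Ube2s*, *Ube2j1* and *Ube2d3*, which is 23.3% of the E2 genes tested, beside 7.87% of all genes called higher. Among all genes 5.67% were called lower. Of the E2 genes, 2 (*Ube2e1* and *Ube2z*) were lower at an unadjusted p under 0.05. The count of E2 genes called lower was 1 by DESeq2 (*Ube2h*) and 0 by edgeR's likelihood ratio test, beside 649 and 619 of the 8382 genes. The median log2 fold change of the 30 was 0.11, beside −0.00082 for all genes tested. At 20 d against Cont, 8 of 30 were called higher (26.7%), beside 12.8% of all genes, and 3 of 30 lower (10.0%), beside 21.1% of all genes, or 33.9% in either direction. The genes called higher were *Ube2b*, *Ube2d3*, *Ube2e2*, *Ube2j1*, *Ube2l6*, *Ube2r2*, *Ube2s* and *Ube2v1*, and those called lower were *Ube2e1*, *Ube2q1* and *Ube2z*. Of these, *Ube2e1* passed the count filter only through its Cont libraries. The median of the 30 was 0.13, beside −0.0052 for all genes. At 20 d against 10 d, *Ube2h* and *Ube2k* were called higher, beside 3.33% of all genes, and *Ube2o* lower, beside 12.6% of all genes, with a median of 0.011 over the 30, beside −0.081 for all genes.

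Most of these calls rest on the scaling. Of the 21 calls in the 3 pairs under TMM, 6 were also made in the same direction with library size alone, 9 kept their direction but were not called, and 6 turned in sign, all of them rises (*Ube2d3* and *Ube2j1* at both times, *Ube2s* at 10 d and *Ube2e2* at 20 d). Scaled by library size alone, in place of TMM, the median of all genes moved to −0.35 at 10 d and −0.39 at 20 d, and that of the E2 genes to −0.25 and −0.26. At 10 d against Cont, 2 of 30 were then called higher (*Ube2o* and *Ube2l6*), beside 1.17% of all genes, and 7 lower (among them *Ube2d2*, *Ube2g1*, *Ube2h*, *Ube2k*, *Ube2q2* and *Ube2z*), beside 22.7%. For 20 d against Cont none was called higher, beside 1.18% of all genes, and 6 were called lower (*Ube2e1*, *Ube2g1*, *Ube2h*, *Ube2l3*, *Ube2q1* and *Ube2z*), beside 34.7% of all genes lower and 35.9% in either direction. Between 20 d and 10 d none was called higher, beside 0.823%, and none was called among the 3 groups, beside 4.97%. In both scalings the median of the E2 genes lay above that of all genes, and rises given below under TMM are relative to that median. Red cell markers moved with the rises: of 11 tested, 9 were called higher at 10 d against Cont, beside 7.87% of all genes. At 20 d against Cont 9 of these markers were higher and 1 lower, beside 12.8% and 21.1%. Their median log2 fold changes were 0.38 and 0.40 under TMM and 0.04 and 0.02 with library size alone. Their part in the rises of *Ube2l6*, *Ube2v1*, *Ube2r2*, *Ube2s* and the other E2 genes was not tested.

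**Figure D2:**
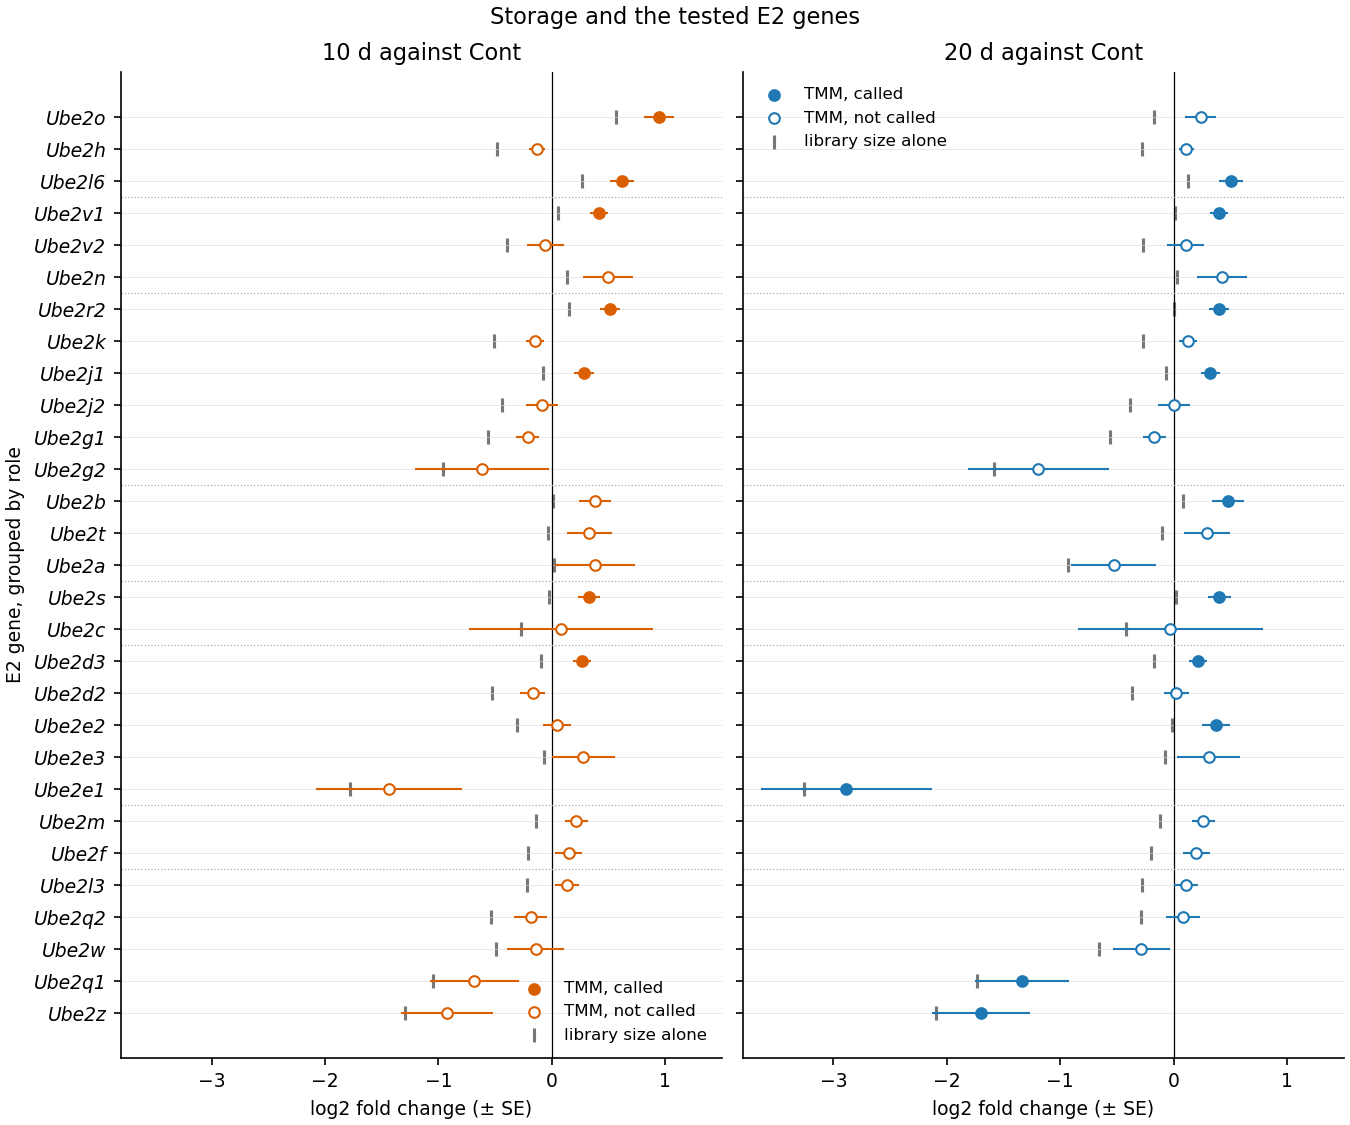
Log2 fold change with its standard error for 29 of the 30 tested E2 genes at 10 d against Cont (left) and 20 d against Cont (right), in groups by role divided by dotted lines. Filled circles were called at an adjusted p under 0.05 and open circles were not. Grey ticks give the value with library size alone, which lies lower for each gene shown.

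Among the genes known for red cell roles, *Ube2o* stood out at 10 d. *Ube2o* (ENSRNOG00000011007, mRatBN7.2 chr10:101766005-101812899, minus strand) had 183, 201, 317 and 226 CPM in Cont, 450, 454, 471 and 411 CPM in 10 d, and 236, 262, 268 and 325 CPM in 20 d. Every 10 d library lay above every Cont and 20 d library, while Cont and 20 d overlapped. Its log2 fold change was 0.95 at 10 d against Cont (SE 0.13, adjusted p = 0.000126, edgeR) and −0.71 at 20 d against 10 d (SE 0.13, adjusted p = 0.0015). At 20 d against Cont it was 0.24 (95% interval −0.02 to 0.50, adjusted p = 0.189), a difference not called, but without Cont replicate 3, the highest Cont library, it was 0.46 with an adjusted p of 0.00171. It was the 1 E2 gene called among the 3 groups in a single test (adjusted p = 5.7e-05 against a threshold of 0.0001), beside 6.13% of all genes, and with each library left out in turn it kept that call in 3 of 12 fits (adjusted p of 1.1e-06 to 0.000434). With library size alone, the rise at 10 d was 0.57 (adjusted p = 0.0267) and the fall at 20 d against 10 d −0.74 (adjusted p = 0.0112). Under TMM both calls held with each library left out in turn, with log2 fold changes of 0.83 to 1.13 and of −0.80 to −0.64.

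*Ube2o* made up a large part of the E2 counts of each library. Its share of counts ranged over 30.1% to 42.5% among Cont libraries, 45.1% to 49.5% among 10 d libraries and 32.2% to 37.6% among 20 d libraries. Counts do not account for gene length, and its share of the summed E2 TPM was smaller. That share spanned 26.7% to 32.0% across 10 d libraries and, overlapping with these, 17.5% to 27.2% across Cont libraries. The 20 d libraries had 18.8% to 21.7% of E2 TPM on *Ube2o*. The TPM of *Ube2o* averaged 116 ± 42.2 in Cont, 167 ± 15.4 in 10 d and 94.4 ± 12.9 in 20 d (SD, n = 4 each). Without *Ube2o*, all other E2 genes summed to 420 to 461 CPM across Cont libraries, 481 to 500.0 CPM across 10 d and 498 to 538 CPM across 20 d libraries. With library size alone the direction turned, with a mean of 516 CPM across Cont libraries, 456 CPM across 10 d and 470 CPM across 20 d libraries. Platelet markers also had their highest sums in 10 d: the 10 markers summed to 0.820 to 1.34 CPM across Cont libraries, 3.78 to 5.06 CPM across 10 d and 0.915 to 1.10 CPM across 20 d libraries. Of 8 tested, 7 rose at 10 d against Cont, beside 7.87% of all genes, and 7 fell at 20 d against 10 d, beside 12.6%. The 10 d sums were also the highest for B cell markers, with 4.71 to 6.38 CPM across Cont libraries, 7.15 to 9.42 CPM across 10 d and 0.210 to 0.480 CPM across 20 d libraries. Of 8 B cell markers tested, 2 rose at 10 d against Cont and 8 fell at 20 d against 10 d, beside the same shares of all genes. The part of platelet and B cell RNA in the *Ube2o* result was not tested.

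*Ube2l6* (ENSRNOG00000030467, chr3:69873424-69888048, plus strand) rose at both times under TMM. It had 5.31, 4.63, 4.02 and 5.07 CPM in Cont, 8.50, 6.72, 6.87 and 7.12 CPM in 10 d, and 6.87, 7.21, 6.09 and 6.84 CPM in 20 d. All stored libraries lay above all Cont libraries, and 10 d and 20 d overlapped. On the log2 scale the difference was 0.62 at 10 d (SE 0.11, adjusted p = 0.000604, edgeR) and 0.51 at 20 d (SE 0.11, adjusted p = 0.00115), and both calls held with each library left out in turn. Scaled by library size alone, the values were 0.27 (adjusted p = 0.044) and 0.12 (adjusted p = 0.302), so the call at 20 d was lost.

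*Ube2h* (ENSRNOG00000048205, chr4:58834674-58930156, minus strand) did not share these rises. It had 99.1, 101, 97.8 and 106 CPM in Cont, 86.8, 90.0, 96.6 and 96.2 CPM in 10 d, and 104, 103, 115 and 115 CPM in 20 d. The 10 d libraries lay below all others. The log2 fold change was 0.24 at 20 d against 10 d (SE 0.07, adjusted p = 0.0241, edgeR), −0.13 at 10 d against Cont (adjusted p = 0.267) and 0.11 at 20 d against Cont (adjusted p = 0.234). The call at 20 d against 10 d was lost without 10 d replicate 1, 10 d replicate 2, 20 d replicate 3 or 20 d replicate 4 (adjusted p = 0.065 to 0.0688). It was also lost with library size alone (0.21, adjusted p = 0.198), where *Ube2h* was instead called lower than Cont at 10 d (−0.48, adjusted p = 0.00352) and at 20 d (−0.28, adjusted p = 0.0399). When genes needed 1 CPM in at least 4 libraries, *Ube2h* was called lower at 10 d against Cont (−0.26, adjusted p = 0.0079).

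The ratio of counts of 2 genes within a library needs no scaling between libraries, and it was added after the values were seen. The ratio of *Ube2o* to *Ube2h* was 1.84, 1.99, 3.24 and 2.13 in Cont, 5.19, 5.05, 4.88 and 4.27 in 10 d, and 2.28, 2.55, 2.34 and 2.81 in 20 d. The ratio at 10 d was 2.16-fold that of Cont (exact two-sided permutation test, p = 0.0286, the smallest that 4 against 4 libraries can give, adjusted p = 0.0429 over 6 comparisons), and at 20 d it was 0.514-fold that of 10 d with the same p. At 20 d it was 1.11-fold that of Cont (exact p = 0.514). Because *Ube2o* lay highest and *Ube2h* lowest in every 10 d library, the p of 0.0286 was fixed beforehand and adds no support. The fold of this ratio combines the changes of both genes. The ratio of *Ube2l6* to *Ube2h* at 10 d was 1.68-fold that of Cont (exact p = 0.0286, adjusted p = 0.0429), and at 20 d 1.32-fold (exact p = 0.0571, adjusted p = 0.0686). At 20 d it was 0.785-fold that of 10 d (exact p = 0.0286, adjusted p = 0.0429). *Ube2h* lay lowest in the 10 d libraries, which favoured this difference, while *Ube2l6* itself overlapped between 10 d and 20 d. This p thus adds no support for a change of *Ube2l6* between these times. The p for *Ube2l6* to *Ube2h* at 10 d against Cont was also fixed beforehand. Every 10 d library lay above Cont in *Ube2l6* and below Cont in *Ube2h*. These ratios are the same under any scaling of the libraries.

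**Figure D3:**
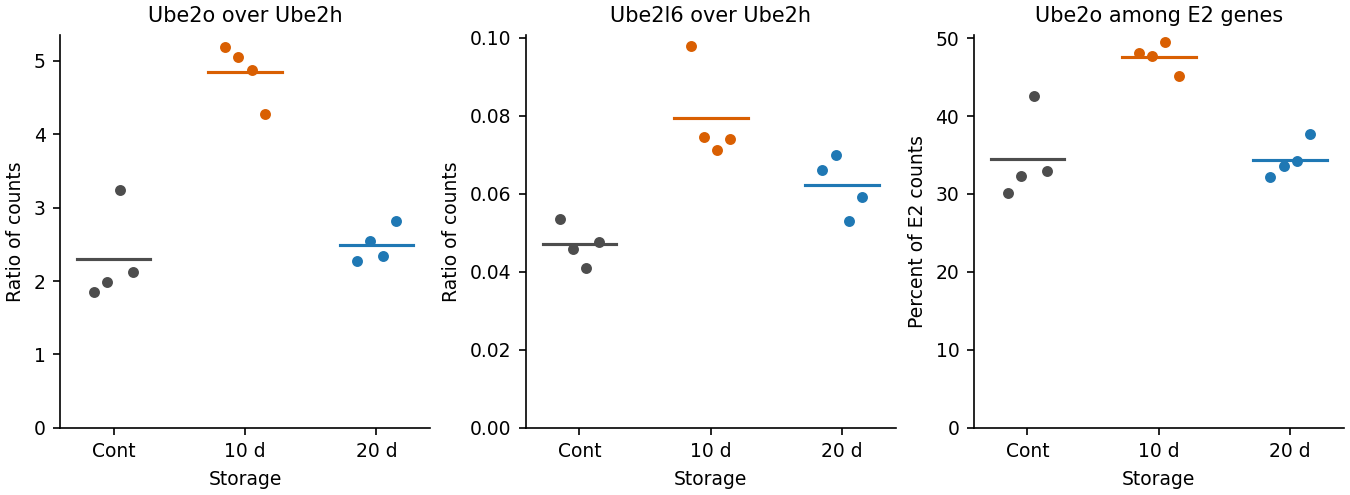
Ratio of *Ube2o* to *Ube2h* counts (left), ratio of *Ube2l6* to *Ube2h* counts (middle) and percent of all E2 counts that fell on *Ube2o* (right) in each library of Cont, 10 d and 20 d, with the group mean as a line. All 10 d libraries have an *Ube2o* to *Ube2h* ratio of at least 4.27, against at most 3.24 in Cont.

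*Ube2l6* and *Ube2v1*, called higher against Cont under TMM, were set beside *Ube2h*, which was not. The rise of *Ube2v1* was not called with library size alone. No window was at hand for *Ube2o* or *Ube2r2*, and that of *Ube2s*, which also rose under TMM, is not shown. The RefSeq windows (GRCr8, 300 bases around the start) are written on the strand of the gene, with GGGCGG or CCAAT on either strand in capitals.
Ube2l6 (chr3:90279455-90279754, plus strand): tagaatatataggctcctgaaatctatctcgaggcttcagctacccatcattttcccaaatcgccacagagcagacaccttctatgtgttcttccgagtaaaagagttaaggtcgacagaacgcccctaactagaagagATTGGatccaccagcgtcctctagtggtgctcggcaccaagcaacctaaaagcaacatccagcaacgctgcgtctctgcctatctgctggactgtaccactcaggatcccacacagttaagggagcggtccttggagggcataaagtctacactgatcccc
Ube2v1 (chr3:176759125-176759424, minus strand): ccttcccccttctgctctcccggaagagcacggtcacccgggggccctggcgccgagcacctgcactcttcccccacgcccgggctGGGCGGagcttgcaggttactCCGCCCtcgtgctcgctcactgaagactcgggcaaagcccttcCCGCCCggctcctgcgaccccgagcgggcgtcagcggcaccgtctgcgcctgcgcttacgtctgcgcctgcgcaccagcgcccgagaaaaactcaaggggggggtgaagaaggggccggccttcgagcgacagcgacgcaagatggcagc
Ube2h (chr4:59897534-59897833, minus strand): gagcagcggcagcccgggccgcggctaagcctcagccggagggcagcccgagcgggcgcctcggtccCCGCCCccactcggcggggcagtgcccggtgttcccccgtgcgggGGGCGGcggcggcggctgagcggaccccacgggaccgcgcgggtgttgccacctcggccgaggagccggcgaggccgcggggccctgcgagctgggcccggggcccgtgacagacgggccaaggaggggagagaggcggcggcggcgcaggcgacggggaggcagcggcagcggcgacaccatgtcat
*Ube2l6* had 1 CCAAT and no GGGCGG, *Ube2v1* had 3 GGGCGG and *Ube2h* had 2. GGGCGG, the core of binding sites of the Sp1 family, occurred in 18 of the 26 E2 genes with a window, beside 33.1% of all 33469 windows. CCAAT occurred in 8 of 26, beside 37.5% of all windows. AGATAA or TGATAA, the motif of GATA factors, occurred in 1 of 26 (*Ube2l3*), beside 18.9%. These matches are letters within a window and not measured binding.

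Of the 3 genes for E2 enzymes of the chains used in signalling, *Ube2v1* rose at both times. *Ube2v1* (ENSRNOG00000025580, chr3:156316781-156340273, minus strand) had 91.3, 84.9, 88.3 and 94.0 CPM in Cont, 134, 119, 109 and 116 CPM in 10 d, and 125, 117, 106 and 127 CPM in 20 d. All stored libraries exceeded all Cont libraries. Its log2 fold change was 0.41 at 10 d (SE 0.08, adjusted p = 0.00165, edgeR) and 0.40 at 20 d (SE 0.08, adjusted p = 0.00068), but 0.05 and 0.01 with library size alone. In TPM, which is also set to the same sum in each library, *Ube2v1* averaged 74.0 in Cont, 74.7 in 10 d and 68.9 in 20 d. *Ube2n* had log2 fold changes of 0.50 at 10 d (95% interval 0.07 to 0.93, adjusted p = 0.164) and 0.43 at 20 d (adjusted p = 0.153). *Ube2v2*, whose product also acts beside Ube2n, had values of −0.06 and 0.11 (adjusted p = 0.893 and 0.672).

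Of the 6 genes for enzymes of degradative chains or of the endoplasmic reticulum, *Ube2r2* and *Ube2j1* rose at both times. *Ube2r2* (ENSRNOG00000010727, chr5:56286725-56345513, plus strand) had 39.9, 35.0, 46.3 and 36.4 CPM in Cont, 56.3, 61.9, 55.6 and 51.3 CPM in 10 d, and 51.9, 55.8, 51.1 and 49.0 CPM in 20 d. No Cont library reached a stored one. On the log2 scale the difference was 0.51 at 10 d (SE 0.09, adjusted p = 0.000704, edgeR) and 0.40 at 20 d (SE 0.09, adjusted p = 0.00201), and 0.15 and 0.00 with library size alone. *Ube2j1*, which encodes an E2 anchored in the membrane of the endoplasmic reticulum, had values of 0.29 at 10 d (adjusted p = 0.0326) and 0.32 at 20 d (adjusted p = 0.00673), and both turned to −0.07 with library size alone. The call at 10 d was lost without any of Cont replicates 1 and 2 and 10 d replicates 2, 3 and 4 (adjusted p = 0.0517 to 0.137).

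*Ube2k* (ENSRNOG00000027088, chr14:42658016-42718630, minus strand), whose product builds degradative chains by itself, likewise had its lowest mean in 10 d. It had 42.6, 47.7, 49.2 and 49.9 CPM in Cont, 40.2, 42.1, 45.2 and 43.2 CPM in 10 d, and 46.0, 55.0, 56.3 and 49.2 CPM in 20 d. All 20 d libraries exceeded all 10 d libraries, and Cont overlapped with both. The log2 fold change at 20 d against 10 d was 0.27 (SE 0.08, adjusted p = 0.0275, edgeR), a call lost without 10 d replicate 1, 10 d replicate 2, 20 d replicate 2 or 20 d replicate 3 (adjusted p = 0.0665 to 0.085). It was also lost with library size alone (0.24, adjusted p = 0.216) and when genes needed 1 CPM in at least 4 libraries (0.23, adjusted p = 0.0562). With these settings *Ube2k* was instead called lower at 10 d against Cont (−0.51 and −0.29, adjusted p = 0.00716 and 0.0188). *Ube2j2*, *Ube2g1* and *Ube2g2*, the last of which encodes an E2 of degradation at the endoplasmic reticulum, were not called in any pair by edgeR's quasi-likelihood test under TMM. When genes needed 1 CPM in at least 4 libraries, *Ube2g1* was called lower at 10 d (−0.35, adjusted p = 0.0201) and at 20 d (−0.34, adjusted p = 0.0174) against Cont. The log2 fold changes at 20 d against Cont were 0.00, −0.17 and −1.20 (adjusted p = 0.997, 0.226 and 0.155), and *Ube2g2* had 116 counts in all libraries together.

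Among the RAD6 homologues and the DNA repair E2, only *Ube2b* was called. *Ube2b*, which encodes a RAD6 homologue that modifies histones, had 14.3, 16.8, 21.7 and 16.7 CPM in Cont, 20.0, 24.4, 27.1 and 18.8 CPM in 10 d, and 21.4, 26.8, 28.8 and 20.0 CPM in 20 d. The groups overlapped, and in each of them replicate 3 was the highest and replicate 1 or 4 the lowest. Its log2 fold change was 0.48 at 20 d (SE 0.14, adjusted p = 0.0135, edgeR) and 0.38 at 10 d (adjusted p = 0.0914, or 0.0224 without Cont replicate 3). The call of *Ube2b* at 20 d was lost with library size alone (0.079, adjusted p = 0.766). It was also lost when genes needed 1 CPM in at least 4 libraries (0.30, adjusted p = 0.194). *Ube2a*, its homologue on the X chromosome, had 237 counts in all and log2 fold changes of 0.38 and −0.53 (adjusted p = 0.578 and 0.307). *Ube2t*, of the Fanconi anemia repair pathway, had values of 0.33 and 0.29 (adjusted p = 0.335 and 0.283).

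The anaphase promoting complex, a ligase of dividing cells, has *Ube2c* and *Ube2s* as its E2 genes, and they differed in their pattern. *Ube2s* (ENSRNOG00000016930, chr1:69028750-69032914, plus strand) had 38.9, 39.7, 32.2 and 31.4 CPM in Cont, 44.3, 50.4, 43.1 and 40.5 CPM in 10 d, and 43.9, 53.2, 48.3 and 42.7 CPM in 20 d. The lowest stored library, with 40.5 CPM, lay just above the highest Cont library. On the log2 scale the difference was 0.33 at 10 d (SE 0.10, adjusted p = 0.0325, edgeR) and 0.40 at 20 d (SE 0.10, adjusted p = 0.00384), and −0.02 and 0.02 with library size alone. The call at 10 d was lost without Cont replicate 3, Cont replicate 4, 10 d replicate 1 or 10 d replicate 2 (adjusted p = 0.0604 to 0.115).

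*Ube2c* (ENSRNOG00000015131, chr3:153506636-153513339, plus strand) separated the libraries by replicate number and not by storage. It had 3.39, 4.71, 5.28 and 34.5 CPM in Cont, 3.93, 5.39, 5.42 and 35.8 CPM in 10 d, and 3.92, 4.62, 4.76 and 33.6 CPM in 20 d. Replicate 4 of each group was 7.74-, 7.30- and 7.58-fold above the mean of the other 3 libraries in Cont, 10 d and 20 d. Among the 3539 genes with a mean of at least 1 CPM, *Ube2c* was the 1 gene whose replicate 4 libraries all lay over 2-fold above all other libraries, and no gene did so for replicates 1, 2 or 3. Storage made no called difference in *Ube2c* (0.08 at 10 d and −0.03 at 20 d against Cont, SE 0.81 each, adjusted p = 0.976 and 0.986). In TPM, replicate 4 had 59.4 to 88.3 and the other libraries 6.85 to 15.2, so that its place among the most abundant E2 genes was the sixth with replicate 4 and the tenth without it. *Tnnc2*, a gene on the opposite strand that shares 69 bases with *Ube2c*, had 0 counts. The cause of the difference was not tested.

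**Figure D4:**
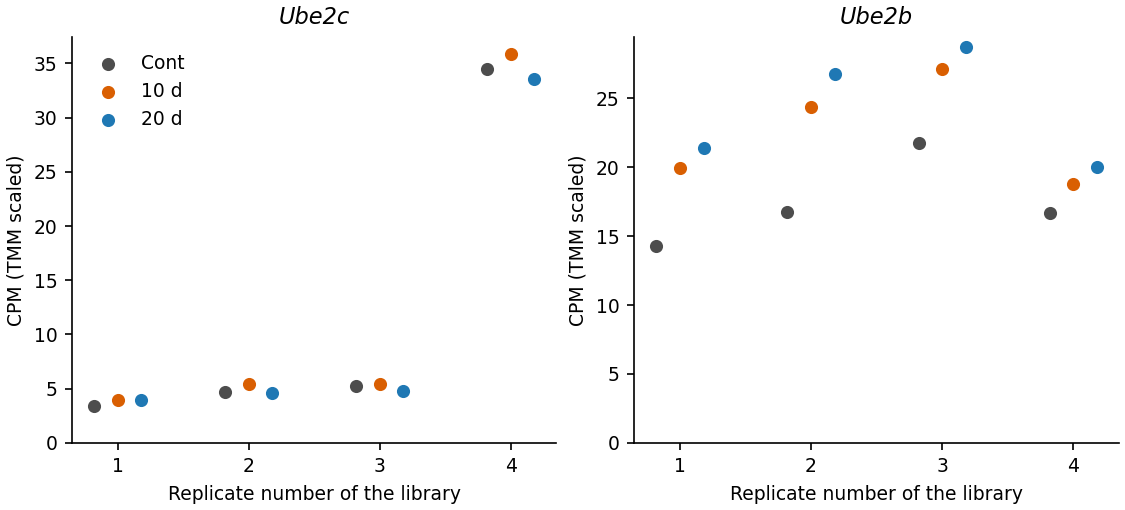
CPM of *Ube2c* (left) and *Ube2b* (right) by replicate number, with 1 point for each of Cont, 10 d and 20 d. In *Ube2c*, replicate 4 lies at 33.6 to 35.8 CPM in all groups and the other 9 libraries at 3.39 to 5.42 CPM; in *Ube2b*, replicate 3 is the highest in each group.

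The UBE2D and UBE2E families encode E2 enzymes that serve many ligases, and their members moved in different directions. *Ube2d3* (ENSRNOG00000013741, chr2:223868730-223898081, plus strand) had 20.0, 18.5, 18.9 and 17.8 CPM in Cont, 22.7, 24.4, 21.7 and 21.5 CPM in 10 d, and 20.5, 22.9, 23.6 and 20.2 CPM in 20 d. Stored libraries lay above Cont by small margins. The log2 fold change was 0.26 at 10 d (SE 0.08, adjusted p = 0.0307, edgeR) and 0.21 at 20 d (SE 0.08, adjusted p = 0.0417), turning to −0.09 and −0.17 with library size alone. The call at 10 d was lost without Cont replicate 2, 3 or 4 or 10 d replicate 1 or 2 (adjusted p = 0.0501 to 0.101), and that at 20 d without Cont replicate 4 or 20 d replicate 2 or 3 (adjusted p = 0.0566 to 0.117). *Ube2e2* rose at 20 d, with a log2 value of 0.37 (SE 0.12, edgeR adjusted p = 0.0261), a call lost without Cont replicate 2 or 20 d replicate 2 (adjusted p = 0.0558 and 0.0893). *Ube2d2* and *Ube2e3* were not called in any pair under TMM, with values of 0.02 and 0.31 at 20 d against Cont (adjusted p = 0.903 and 0.426).

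*Ube2e1* fell, at very low counts. *Ube2e1* (ENSRNOG00000008794, chr15:7439759-7493400, plus strand) had 0.227, 0.162, 0.187 and 0.129 CPM in Cont, 0.0879, 0.0279, 0.114 and 0.0276 CPM in 10 d, and 0.0601 and 0.0300 CPM in 20 d replicates 1 and 2. The other 20 d libraries had 0 counts. All groups together had 88 counts, of which 64 were in Cont, 18 in 10 d and 6 in 20 d, and each Cont library lay above each stored one. Only the Cont libraries held enough counts to pass the filter, so *Ube2e1* was tested because it was high in Cont. The filter thus favoured a fall. Its log2 fold change was −2.89 at 20 d (SE 0.75, adjusted p = 0.00615, edgeR) and −1.44 at 10 d (adjusted p = 0.167), and the call at 20 d held with each library left out in turn, with values of −3.94 (without 20 d replicate 1) to −2.47 (without 20 d replicate 4). With no count filter, edgeR gave *Ube2e1* an adjusted p of 0.00437 at 20 d against Cont. An unnamed gene on the opposite strand shares 3152 bases with *Ube2e1* and had 24 counts.

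*Ube2z* and *Ube2q1* also fell at 20 d. *Ube2z* (ENSRNOG00000006868, chr10:80997817-81016936, minus strand), whose product receives ubiquitin from the E1 enzyme Uba6, had 0.328, 0.567, 0.457 and 0.258 CPM in Cont, 0.147, 0.335, 0.185 and 0.179 CPM in 10 d, and 0.0451, 0.195, 0.124 and 0.128 CPM in 20 d. The 20 d libraries lay below all Cont libraries, and 10 d overlapped with both. On the log2 scale the difference was −1.70 at 20 d (SE 0.43, adjusted p = 0.00498, edgeR) and −0.92 at 10 d (adjusted p = 0.155). *Ube2q1* averaged 0.211 ± 0.0854 CPM in 20 d and 0.536 ± 0.160 CPM in Cont (SD, n = 4 each), a log2 difference of −1.34 (SE 0.41, edgeR adjusted p = 0.0179). That call was lost without Cont replicate 2, 20 d replicate 1 or 20 d replicate 2 (adjusted p = 0.052 to 0.0672).

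The 3 falls held with library size alone (−3.26, −1.73 and −2.10 for *Ube2e1*, *Ube2q1* and *Ube2z*). They accompanied a loss of leukocyte markers. Of the tested markers, 7 of 7 neutrophil, 3 of 3 monocyte, 8 of 8 B cell and 4 of 4 T and NK cell genes fell at 20 d against Cont, beside 21.1% of all genes. The 9 T and NK cell markers in the table summed to 0.0465 to 0.198 CPM in 20 d and 2.69 to 3.20 CPM in Cont. Only 7 of 10 neutrophil, 3 of 8 monocyte, 8 of 9 B cell and 4 of 9 T and NK cell markers in the table were tested. The filter keeps genes that are high in any group, so it favoured a fall for markers with few counts at 20 d. The part of leukocyte RNA in the 3 falls was not tested.

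The E2 genes for NEDD8, a ubiquitin-like protein, were not called in any pair under TMM by edgeR's quasi-likelihood test without a replicate block, and *Ube2m* lay nearest to the threshold. *Ube2m* (ENSRNOG00000027514, chr1:73662576-73666026, minus strand), which encodes an E2 that attaches NEDD8 to cullins, had 16.9, 14.9, 13.5 and 13.4 CPM in Cont, 19.1, 17.4, 16.5 and 15.1 CPM in 10 d, and 20.2, 17.6, 17.0 and 15.5 CPM in 20 d. The groups overlapped. The log2 fold change was 0.22 at 10 d (adjusted p = 0.19) and 0.26 at 20 d (95% interval 0.07 to 0.46, adjusted p = 0.0523), with an unadjusted p under 0.05 for both, and DESeq2 called it at 20 d. Without Cont replicate 1, 10 d replicate 1, 10 d replicate 4 or 20 d replicate 4 it was called at 20 d (adjusted p = 0.0109 to 0.0458). With no count filter *Ube2m* was called at 20 d as well (0.33, edgeR adjusted p = 0.00704). *Ube2f*, the other NEDD8 E2, had 0.20 at 20 d (adjusted p = 0.216).

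The remaining genes *Ube2l3*, *Ube2q2* and *Ube2w* were not called under TMM. *Ube2l3* encodes an E2 for HECT and RBR ligases and *Ube2w* one that modifies the amino terminus of proteins. Their log2 fold changes at 20 d against Cont were 0.11 for *Ube2l3* (adjusted p = 0.452), 0.08 for *Ube2q2* (adjusted p = 0.715) and −0.29 for *Ube2w* (adjusted p = 0.422). Without 20 d replicate 3, which had 1.63 CPM against 0.646 to 0.870 CPM in the other 20 d libraries, *Ube2w* was called lower (−0.66, adjusted p = 0.0267).

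**Figure D5:**
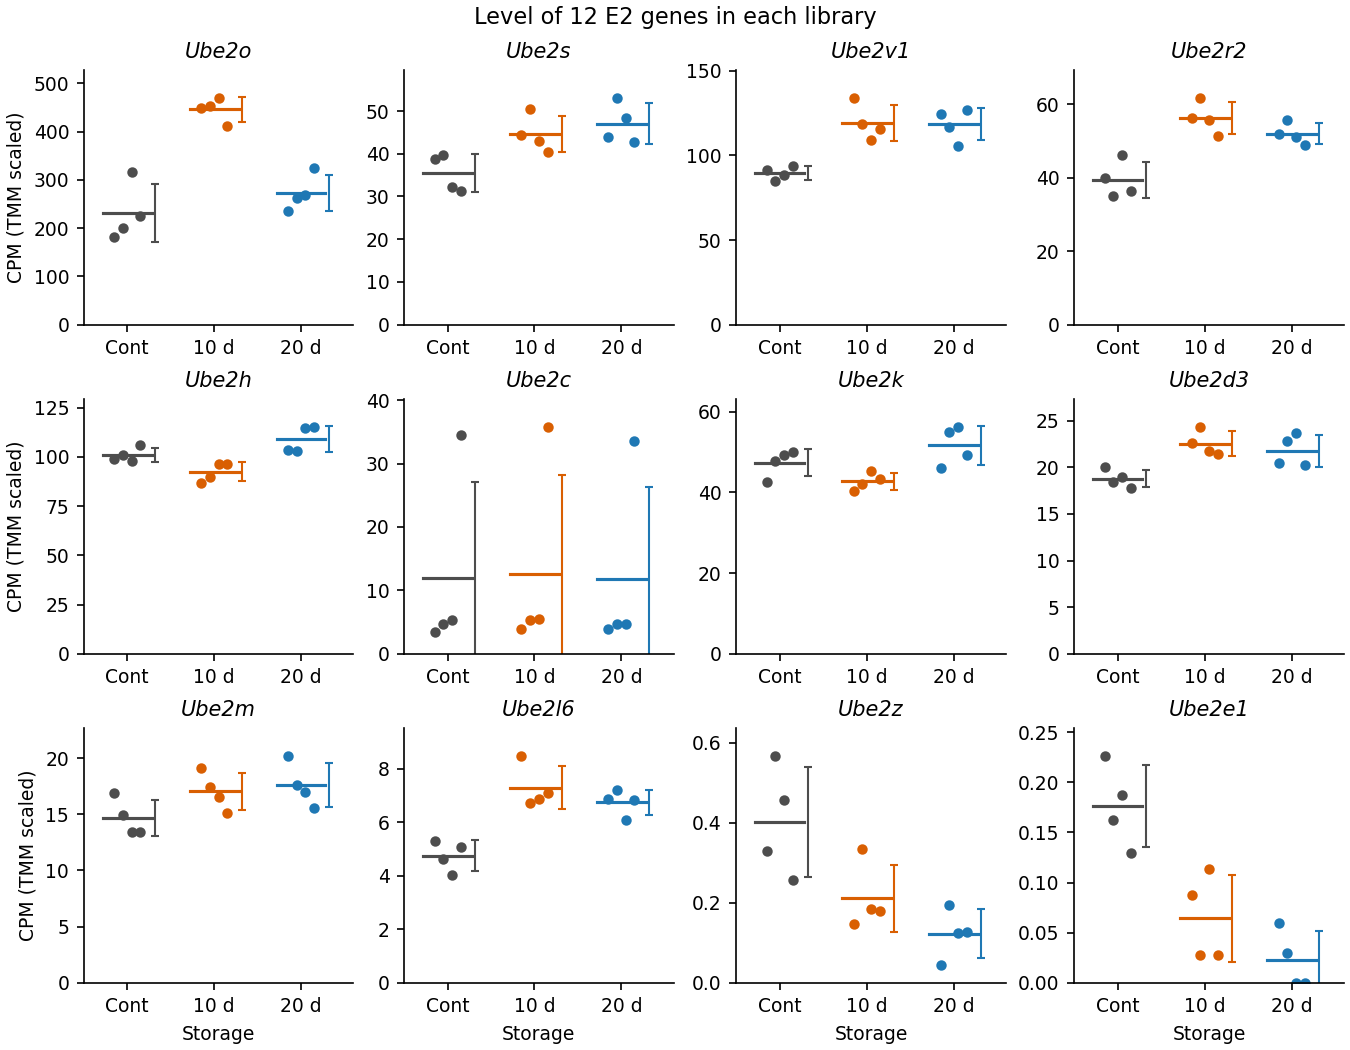
CPM in each library for the 12 E2 genes with values given in full, for Cont, 10 d and 20 d; points are libraries 1 to 4 from left to right, lines are group means and bars are ± SD (n = 4), ending at 0 where the SD exceeds the mean. *Ube2o* is highest in 10 d at 411 to 471 CPM, and the 2 genes at the lower right, *Ube2z* and *Ube2e1*, are lowest in 20 d.

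Other genes of the ubiquitin pathway were counted from 7 lists of 95 symbols. At 10 d against Cont, 16 of 85 tested rows were called higher, beside 7.87% of all genes, and 1 lower, beside 5.67%. At 20 d against Cont 28 were higher, beside 12.8%, and 4 lower, beside 21.1%, and at 20 d against 10 d 4 were higher, beside 3.33%, and 6 lower, beside 12.6%. The median log2 fold changes of the 85 rows were 0.09, 0.18 and 0.07 in these pairs, beside −0.00082, −0.0052 and −0.081 for all genes. With library size alone the calls became 3 higher and 23 lower at 10 d against Cont (all genes 1.17% and 22.7%), 3 and 18 at 20 d against Cont (1.18% and 34.7%), and 1 and 5 at 20 d against 10 d (0.823% and 10.8%). *Ubb*, a polyubiquitin gene, rose at 20 d with a log2 value of 0.45 (SE 0.07, edgeR adjusted p = 9.8e-05), and *Nedd8* by 0.26 (adjusted p = 0.00702). Scaled by library size alone, these were 0.06 and −0.12.

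No E1 gene was called in any pair under TMM. Of 8 tested E1 genes, 1 (*Uba1*) was lower at 20 d against Cont and 1 (*Uba7*) at 20 d against 10 d at an unadjusted p under 0.05, DESeq2 called none, and edgeR's likelihood ratio test called 1 lower at 20 d against 10 d. *Uba1*, the main E1 for ubiquitin, differed by −0.37 on the log2 scale at 20 d (SE 0.15, edgeR adjusted p = 0.0696), and *Uba7*, the E1 for ISG15, had −0.93 (SE 0.54, adjusted p = 0.206). When scaled by library size alone, *Uba1* was called lower at 10 d (−0.53, adjusted p = 0.0218) and at 20 d (−0.76, adjusted p = 0.00122). Of 6 tested E2 genes without a Ube2 name, 2 rose at 20 d under TMM, beside 12.8% of all genes. They were *Cdc34*, the close relative of *Ube2r2*, by 0.73 (SE 0.15, edgeR adjusted p = 0.00108) and *Atg3*, the E2 of autophagy, by 0.52 (SE 0.11, adjusted p = 0.00114). With library size alone 1 of the 6 was higher and 1 lower at 20 d, beside 1.18% and 34.7% of all genes.

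The CTLH complex, the ligase that works with Ube2h, had 4 of 12 tested rows called higher and 1 lower at 10 d against Cont, beside 7.87% and 5.67% of all genes, and 7 higher and 2 lower at 20 d against Cont, beside 12.8% and 21.1%. *Rmnd5a*, one of its RING subunits, rose by 0.50 at 10 d and 0.47 at 20 d (adjusted p = 0.00043 and 0.000263, edgeR), and *Ypel5* by 0.36 and 0.53 (adjusted p = 0.0168 and 0.000341). With library size alone 1 row was higher and 3 lower at 10 d, beside 1.17% and 22.7% of all genes. At 20 d none was higher and 2 lower in that scaling, beside 1.18% and 34.7%. Of 13 cullin ligase genes, 2 rose at 10 d, beside 7.87% of all genes, and 3 at 20 d, beside 12.8%. With library size alone 1 was higher and 3 lower at each time, beside the shares of all genes just given for that scaling. *Ddb1*, the adaptor of Cul4 ligases, rose by 1.01 at 10 d and 0.97 at 20 d (adjusted p = 6.3e-06 and 1.1e-06), and by 0.65 and 0.57 with library size alone. *Fbxo7*, a substrate receptor, rose by 0.35 and 0.40 (adjusted p = 0.006 and 0.000775).

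Of 22 other E3 ligase genes, 7 rose at 10 d, beside 7.87% of all genes, and 7 rose and 1 fell at 20 d, beside 12.8% and 21.1%. With library size alone none was higher and 7 were lower at 10 d, beside 1.17% and 22.7% of all genes. At 20 d none was higher and 6 were lower in that scaling, beside 1.18% and 34.7%. *Marchf2*, a membrane ligase, rose by 0.32 and 0.44 (adjusted p = 0.00941 and 0.000249, edgeR) and *Trim10*, a red cell ligase, by 0.32 and 0.38 (adjusted p = 0.00923 and 0.000814). Of 16 ubiquitin protease genes, 2 rose at 10 d, beside 7.87% of all genes, and 7 rose and 1 fell at 20 d, beside 12.8% and 21.1%. Scaled by library size, 1 was higher and 5 lower at 10 d, beside 1.17% and 22.7%. At 20 d 1 was higher and 3 lower in that scaling, beside 1.18% and 34.7%. *Usp15* rose by 0.68 and 0.75 (adjusted p = 8.4e-06 and 3e-07) and *Usp4*, its close relative, by 0.50 at both times (adjusted p = 0.00066 and 0.000203). Scaled by library size alone, *Usp15* still rose, by 0.32 and 0.37 (adjusted p = 0.0144 and 0.0033), whereas *Usp4* did not pass the threshold.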

How the data were processed

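Rat RBC total RNA was sequenced as rRNA-depleted libraries (NEBNext Ultra II), 4 per group. The authors mapped reads to mRatBN7.2 with CLC Genomics Workbench and deposited 1 table with 48 value columns of the 12 libraries. Its count columns, deposited by the authors, hold unnormalized whole numbers of reads assigned to each gene. The deposited TPM values are the authors' and were used for levels between genes. The deposited RPKM values were not used. A further deposited set, headed CPM by the authors, does not add up to one total in each library and was treated as a signal and left unused. A further 24 columns hold the authors' own comparisons (fold changes, p-values) and were not used.

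Depth was 65735930 to 85996710 counts per library. Tests on counts used edgeR 4.0.16 under R 4.3.3: filterByExpr (8382 genes kept), TMM (factors 0.859 to 1.30), quasi-likelihood F-tests over all 12 libraries without a block, and Benjamini-Hochberg adjustment, with an adjusted p under 0.05 for pairs and 0.0001 among the 3 groups. Scripts were tested on simulated data. Intervals are 95% and come from the fit. Genes and replicate numbers were mapped through the labels and column names. DESeq2 1.42.0 and the other alternatives are in the closing section. Ratios were compared by exact permutation with scipy 1.17.1. Tables and plots were made with matplotlib 3.10.9, numpy 2.4.6 and pandas 2.3.3 (Python 3.11.15). Start regions were taken from RefSeq (GRCr8), with a window for 26 symbols.

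Of the 35 E2 rows, 2 enter the counts and medians but are not reported here by name. Full values are given for the 10 E2 genes with the highest mean TPM, those called among the 3 groups, and per pair the 6 with the smallest adjusted p among those called; *Ube2b*, *Ube2q1* and *Ube2w* were added after their values were seen. Of each pathway list, 2 genes are named, those of lowest adjusted p between 20 d and Cont. The E2 genes, roles, lists and markers were chosen with earlier results of these data known. Of the 95 pathway symbols, *Sumo2*, *Rnf11*, *Huwe1* and *Otud5* were not analysed here.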

Additional observations from a re-analysis of the deposited data

Results flagged for a closer look

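Of the 87 groups of 4 libraries formed by 29 E2 genes and 3 storage conditions, 4 held a library far from the other 3, where chance gives about 4.35 by the same measure. In *Ube2c*, replicate 4 was far above the others in each group, with 34.5 CPM in Cont (others 3.39 to 5.28), 35.8 CPM in 10 d (others 3.93 to 5.42) and 33.6 CPM in 20 d (others 3.92 to 4.76). In *Ube2f*, Cont replicate 1 was low with 2.50 CPM, against 3.00 to 3.05 CPM in the other Cont libraries. *Ube2f* was not called in any pair under TMM.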

How the results depend on the processing

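The counts of E2 genes called depended on scaling and filter. With library size alone, 0 E2 genes were called among the 3 groups, 2 were higher and 7 lower at 10 d against Cont, 0 higher and 6 lower at 20 d against Cont, and 0 higher at 20 d against 10 d, and other pathway genes called numbered 26, 21 and 6 in these pairs (TMM: 17, 32 and 10). Under it, values turned negative at 10 d against Cont for *Ube2d3* (−0.091), *Ube2j1* (−0.074) and *Ube2s* (−0.024), and at 20 d against Cont for *Ube2d3* (−0.17), *Ube2e2* (−0.014), *Ube2h* (−0.28), *Ube2j1* (−0.070) and *Ube2l3* (−0.28). When genes needed 1 CPM in at least 4 libraries, 3817 genes were tested in all, with fewer E2 genes among them. Among the groups 0 E2 genes were called, beside 218 of the 3817. At 10 d against Cont 4 were higher and 3 lower, beside 359 and 499 of all genes. At 20 d against Cont 2 were higher and 1 lower, beside 376 and 643. At 20 d against 10 d 1 was higher, beside 222. Pathway genes called at 20 d against Cont numbered 16. *Ube2e1*, *Ube2q1* and *Ube2z* were not tested with this filter. With DESeq2 size factors in edgeR, 0 were called among the groups and 4 higher at 10 d against Cont, beside 486 and 531 of 8382 genes. DESeq2 called 4 among the groups and 1 lower at 10 d against Cont, beside 1306 and 649 of 8382. It called 17 pathway genes at 20 d against 10 d, beside 565 genes higher and 1130 lower in all. The likelihood ratio test called 4 among the groups, beside 1293 of 8382. Without a filter, 6 were called among the groups, beside 1521 of 21531 genes. Pathway genes called at 20 d against 10 d then numbered 16, beside 505 genes higher and 1191 lower in all.

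With the replicate number as a block, 6 E2 genes were called among the groups, beside 1022 of 8382 genes. They were *Ube2b*, *Ube2l6*, *Ube2o*, *Ube2r2*, *Ube2s* and *Ube2v1*. Pathway genes called numbered 28 at 10 d against Cont, beside 928 genes higher and 639 lower in all. At 20 d against 10 d they numbered 20, beside 507 genes higher and 1293 lower. The SE of *Ube2c* at 10 d against Cont was 0.074 in place of 0.81. In the pairs, the block further called *Ube2b* (0.38, adjusted p = 0.000405) and *Ube2m* (0.22, adjusted p = 0.0152) higher at 10 d against Cont, and *Ube2m* (0.26, adjusted p = 0.00185) and *Ube2o* (0.26, adjusted p = 0.043) higher at 20 d against Cont. Deviations from the group means correlated at 0.0167 to 0.214 in the 12 pairs of libraries with the same number (5 over 0.1) and at −0.186 to 0.0906 in the 36 others, and 8 of 12 libraries correlated best with their own number, which hints at pairing but does not establish it.

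With each library left out in turn, 0 to 2 E2 genes were called among the groups, beside 252 to 606 of the 8579 to 8803 genes tested. At 10 d against Cont, 4 to 7 were higher (4 without 10 d replicate 2) and 0 lower, beside 451 to 714 and 292 to 606 of all genes. At 20 d against Cont, 6 to 9 were higher and 2 to 4 lower, beside 928 to 1393 and 1515 to 1894. At 20 d against 10 d, 0 to 3 were higher (0 without 10 d replicate 1, 10 d replicate 2 or 20 d replicate 3) and 1 lower. Of all genes, 120 to 532 were higher and 797 to 1109 lower in that pair. Pathway genes called numbered 13 to 18, 28 to 40 and 4 to 16 in these pairs (16 without Cont replicate 1, 5 without 10 d replicate 2 and 4 without 20 d replicate 3). Leaving out replicate 4 of every group, chosen after the data were seen, gave 0 among the groups, 4 higher at 10 d against Cont, 0 higher at 20 d against 10 d, and 5 pathway genes at 20 d against 10 d. Of the 8489 genes then tested, 122 were called among the groups and 400 were higher at 10 d against Cont. At 20 d against 10 d, 86 of them were higher and 680 lower. The cause of these differences was not tested. Depth limits *Ube2e1*, *Ube2g2*, *Ube2z* and *Ube2a* most, with 88, 116, 241 and 237 counts over 12 libraries.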
